A study of Rattus norvegicus with 24 samples.

Results

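Junction genes of the blood-testis barrier were followed across 24 rat arrays, namely Cldn11, Ocln, F11r, Cxadr, Tjp1, Cdh2 and Gja1. All 14 probe sets that carry exactly 1 of these 7 symbols in the array annotation were taken, out of 31099 probe sets on the array and 14217 named genes. The genes were chosen for their role in the barrier and not from a test on these arrays, although earlier results of the data were known when they were chosen.

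The study compared RNA of male germ cells between Brown Norway rats aged 4 months (young) and 18 months (aged). From each rat a fraction of pachytene spermatocytes, which are in meiotic prophase, and a fraction of round spermatids, the haploid cells that follow, were hybridised to separate Affymetrix arrays. The 4 groups, with 6 arrays each, were thus each fraction at each age. The labels name no other treatment, and by the numbers in the sample titles each of the 12 rats gave both fractions. Young rats are numbered 1, 2, 3, 10, 11 and 13 and aged rats 2, 3, 5, 8, 9 and 10. Equal numbers at both ages are different rats. Testes were digested with collagenase and trypsin and the cells were sedimented in a density gradient, to a purity above 83%, so each fraction could hold other cells of the tubule.

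The blood-testis barrier is built by Sertoli cells, the somatic nurse cells of the seminiferous tubule, near its base. It joins tight junctions, a cadherin-based adhesion called the ectoplasmic specialization, gap junctions and desmosomes in a belt. Preleptotene spermatocytes pass through it, and pachytene spermatocytes and spermatids develop on its inner side. Most of its proteins are known from Sertoli cells, while some, such as the adhesion proteins Cxadr and F11r, are also described in germ cells.

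Markers of both labels mostly differed between the fractions in the direction of the label. Of 12 measured pachytene markers 11 were lower in round spermatids, and 8 of 8 round spermatid markers were higher there. Of all genes 38.6% were lower and 49.7% higher. Also higher there were 13 of 13 late spermatid, 12 of 12 macrophage, 8 of 10 peritubular and 6 of 10 spermatogonial markers. Leydig cell and endothelial markers went both ways. A higher count alone thus does not set round spermatids apart. Values are log2 signals, quantile normalized within a fraction for the comparisons of age, so each is relative to the other probe sets of its array. A value can be compared between arrays of 1 probe set, and not between probe sets. Array medians as deposited ran from 6.62 to 7.38 in pachytene spermatocytes and from 7.56 to 7.86 in round spermatids. With age the median probe set shifted by -0.24 in pachytene spermatocytes and by 0.14 in round spermatids on the deposited scale, and by 0.14 in pachytene spermatocytes when arrays were centred on their medians. Young arrays were the more varied, with correlations between arrays of a group as low as 0.971 in pachytene spermatocytes and 0.978 in round spermatids, against 0.996 in both aged groups. Earlier work on these data set young rats 1, 10 and 11 apart, so results are also given without them. Tests are limma's moderated tests across 31042 probe sets with Benjamini-Hochberg adjusted p-values (adjusted p below), and a probe set is said to be lower or higher where that p is under 0.05.

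In pachytene spermatocytes the barrier genes were mostly lower in aged rats. Of the 14 probe sets 9 were lower and 1 was higher, against 15.4% and 22.1% of all probe sets tested, and 4 were not past the threshold. The median change over the 14 was -0.54, and over all probe sets it was 0.05. For 6 probe sets every aged array lay below every young one, which held for 8.08% of all probe sets. Each of the 7 genes had at least 1 lower probe set. Cldn11, Ocln and Gja1 were lower by over 2-fold, F11r by 1.83-fold and Tjp1 by 1.28-fold. In bulk fractions like these, fewer cells of a type and less RNA per cell cannot be told apart.

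**Figure D1:**
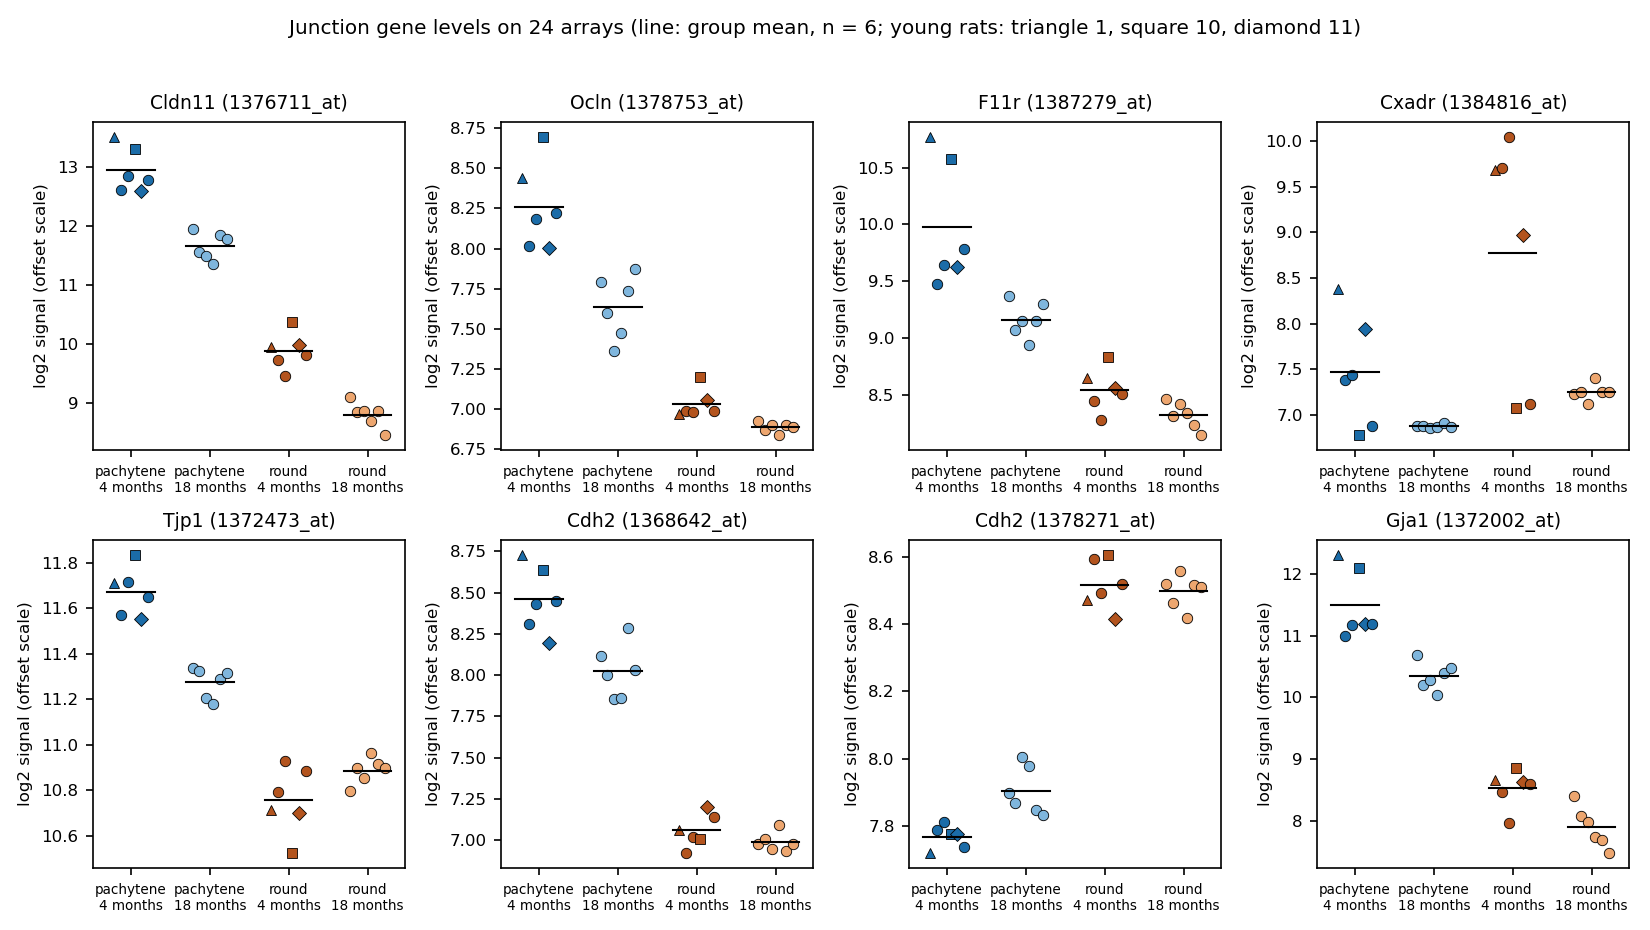
Log2 signal of 8 probe sets on each of the 24 arrays, by fraction and age, on the scale shared by both fractions after the background offset; points are arrays, lines are group means (n = 6), and triangle, square and diamond mark young rats 1, 10 and 11. Cldn11, Gja1, F11r and Ocln were higher in young than in aged pachytene spermatocytes with rats 1 and 10 on top, while Cxadr split the young rats into 4 high and 2 low ones in both fractions.

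Among the tight junction membrane proteins, Cldn11 (chromosome 2, 114136234 to 114149539, assembly GRCr8), the claudin that forms the strands of the Sertoli cell barrier, separated the ages in both fractions. Probe set 1376711_at lay at 12.52, 12.73 and 13.44 (lowest, median and highest) in young pachytene spermatocytes and at 11.42, 11.70 and 11.95 in aged ones. The largest gap in the ordered values, 0.57, fell exactly between the 6 young and the 6 aged arrays. Rats 1 and 10 were the highest, at 13.44 and 13.23. The level was 2.25-fold lower in aged rats (log2 change -1.17, SE 0.16, adjusted p = 0.000467), and stayed past the threshold in 12 of 12 fits that each left out 1 rat, with changes from -1.24 to -1.05. Without young rats 1, 10 and 11 it was -0.97. The second probe set, 1369609_at, was lower by 0.73 (SE 0.17, adjusted p = 0.00692), again with no overlap of the groups. Its young rat 1 stood at 9.20 and the other 5 young rats at 8.05 to 8.29, and without rats 1, 10 and 11 the change was -0.52.

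In round spermatids Cldn11 was also lower with age. Probe set 1376711_at lay at 9.15, 9.59 and 10.13 in young rats and at 8.24, 8.58 and 8.80 in aged ones. The groups did not overlap, and rat 10 was the highest, 0.43 above the next array. The change was -1.06 (SE 0.13, 2.09-fold, adjusted p = 0.00178), it was past the threshold in 12 of 12 fits without 1 rat, and it was -0.85 without rats 1, 10 and 11 (adjusted p = 0.0141). Of the members' calls in round spermatids this was the one that held without those 3 rats. For 1369609_at the change was -0.13 (adjusted p = 0.0417), which remained past the threshold in 2 of 12 fits without 1 rat and was 0.01 on the deposited scale.

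Ocln, occludin, a membrane-spanning tight junction protein (chromosome 2, 33391303 to 33442207), followed. Probe set 1378753_at lay at 7.52, 7.88 and 8.66 in young pachytene spermatocytes and at 6.11, 6.83 and 7.26 in aged ones. Rats 10 and 1 were again the highest, and every young array was above every aged one. The change was -1.20 (SE 0.23, 2.30-fold, adjusted p = 0.00216), and -0.998 without rats 1, 10 and 11. In round spermatids the values were close together, 7.01, 7.03 and 7.25 in young rats and 6.84, 6.92 and 6.95 in aged ones. They lay near a control for a transcript that rats lack, which averaged 6.83 in round spermatid arrays. The change in round spermatids was -0.17 (adjusted p = 0.0125) with no overlap. It was past the threshold in 12 of 12 fits without 1 rat, while without rats 1, 10 and 11 its adjusted p was 0.0617, and on the deposited scale the change was -0.03 (adjusted p = 0.617). The other Ocln probe set, 1398281_at, was not past the threshold at either age comparison (-0.13 and -0.02).

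F11r, junctional adhesion molecule A (chromosome 13, 86406229 to 86429819), showed how much 2 arrays can carry. In young pachytene spermatocytes rats 1 and 10 read 10.90 and 10.72, and the other 4 young rats 9.62 to 9.95. The aged rats lay between 8.99 and 9.50. The gap of 0.77 below rats 1 and 10 was the largest in the ordered values, and 2.30% of all probe sets had a gap of that size or more. The change was -0.87 (SE 0.21, adjusted p = 0.00691), with no overlap of the groups. It was past the threshold in 12 of 12 fits without 1 rat, and without rats 1, 10 and 11 it was -0.55 (adjusted p = 0.00448), so these arrays set part of the size of the change but not the call. In round spermatids F11r lay at 8.11 to 8.56 in young rats and at 8.01 to 8.26 in aged ones, which overlapped (-0.18, adjusted p = 0.0800).

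Cxadr, the coxsackie and adenovirus receptor (chromosome 11, 30469778 to 30516990), is an adhesion protein of the same immunoglobulin superfamily as F11r. Its 1 probe set, 1384816_at, separated young rats from each other. In pachytene spermatocytes young rats 1, 11, 3 and 2 read 8.18, 7.40, 6.31 and 6.17, whereas young rats 13 and 10 read 4.68 and 4.36. The 6 aged rats lay between 4.60 and 4.77. Thus 4 young rats were high, and the other 2 were at or below the range of the aged rats. In round spermatids the same 4 rats were high, with 9.77 in rat 3, 9.40 in rat 2, 9.38 in rat 1 and 8.69 in rat 11. Rats 13 and 10 stood at 7.18 and 7.14 there, and the aged rats at 7.18 to 7.43.

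**Figure D2:**
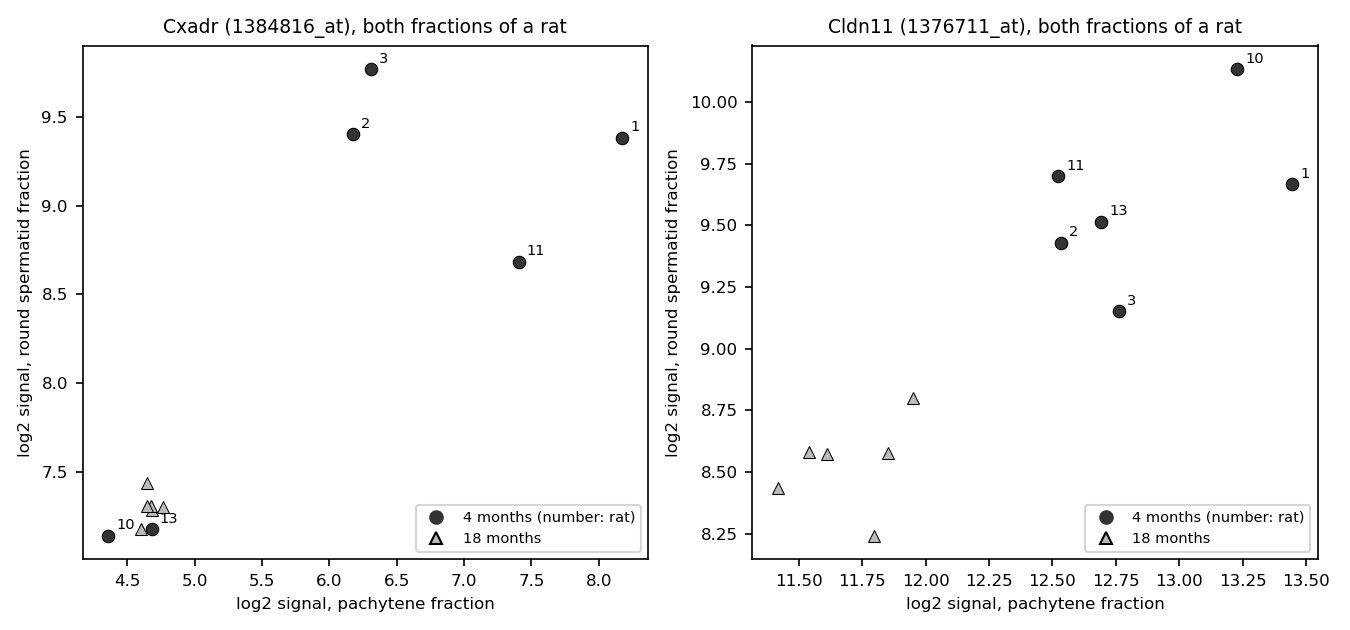
Log2 signal of a rat's round spermatid fraction (vertical) against its pachytene fraction (horizontal) for Cxadr and Cldn11, each on the scale of its fraction; filled circles are young rats with their number, triangles aged rats. For Cxadr young rats 1, 2, 3 and 11 stand apart from all other rats in both fractions and rats 10 and 13 lie with the aged rats, whereas for Cldn11 all 6 young rats lie above all 6 aged rats in both.

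The gap between the 4 high rats and the rest was 1.41 in pachytene spermatocytes, a size reached by 33 of 31042 probe sets (0.106%), and 1.25 in round spermatids, reached by 6 (0.0193%). With a gap of at least 1, a limit chosen after the values were seen, 3 probe sets qualified in both fractions. These were probe sets of Cxadr, Rgs7bp and Plekha6, each with the same rats above the gap in both fractions. For Rgs7bp and Plekha6 that was rat 10 alone, which was low in Cxadr. The mean change of Cxadr with age was -1.51 in pachytene spermatocytes (SE 0.53, adjusted p = 0.0395) and -1.29 in round spermatids (SE 0.41, adjusted p = 0.0450). Each call was kept in only 2 of 12 fits without 1 rat, those without rat 10 or rat 13, and was lost without any of the 4 high rats or any aged rat (adjusted p up to 0.0831 and 0.0941). In those fits that lost the call the change was -1.54 to -1.11 in pachytene spermatocytes and -1.31 to -1.05 in round spermatids. Without young rats 1, 10 and 11 it was -1.03 in pachytene spermatocytes (adjusted p = 0.0160, past the threshold) and -1.51 in round spermatids (adjusted p = 0.0552). In the fit over all 24 arrays, with a background offset added to pachytene values, it was -0.59 in pachytene spermatocytes (adjusted p = 0.283). The low arrays were near the signal of a control for a transcript that rats lack, which averaged 4.28 in pachytene and 6.83 in round spermatid arrays.

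Tjp1, the scaffold protein ZO-1 that ties claudins and occludin to actin (chromosome 1, 128260330 to 128505018), changed little but evenly in pachytene spermatocytes. Probe set 1372473_at lay at 11.61, 11.72 and 11.85 in young rats and at 11.27, 11.38 and 11.41 in aged ones. The largest gap, 0.19, again divided the ages exactly. The change was -0.35 (SE 0.05, adjusted p = 0.000702), past the threshold in 12 of 12 fits without 1 rat, and -0.33 without rats 1, 10 and 11. With median centring in place of quantile normalization it was -0.07 (adjusted p = 0.507), which did not pass the threshold. In round spermatids the values overlapped, at 10.30 to 10.76 in young rats and 10.60 to 10.80 in aged ones (0.15, adjusted p = 0.151). The lowest array there was rat 10, which had the highest level in pachytene spermatocytes. The dimmer probe set 1395337_at was past the threshold in neither fraction (-0.0050 and -0.10).

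Cdh2, N-cadherin, the cadherin that joins Sertoli cells to each other and to germ cells (chromosome 18, 8051097 to 8265288), gave a different answer by probe set. Probe set 1368642_at lay at 7.86, 8.27 and 8.70 in young pachytene spermatocytes and at 7.23, 7.54 and 8.02 in aged ones, with an overlap of 1 young array (rat 11) and 1 aged array (rat 9). It was lower in aged rats by 0.74 (SE 0.16, adjusted p = 0.00404), and 1387259_at was lower by 0.34 (SE 0.12, adjusted p = 0.0398), a call kept in 4 of 12 fits without 1 rat. Probe set 1378271_at was higher in aged rats, at 6.95 to 7.14 in young and 7.18 to 7.51 in aged rats (0.27, SE 0.07, adjusted p = 0.00707). Its groups did not overlap and the call held in 12 of 12 fits without 1 rat, but on the deposited scale the change was -0.12 (adjusted p = 0.156). In round spermatids no Cdh2 probe set passed the threshold, with changes of -0.08, -0.08 and -0.02. The part of the transcript that each probe set reads was not analysed here.

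Gja1, connexin 43, the main gap junction protein between Sertoli cells and between them and germ cells (chromosome 20, 36302490 to 36315010), resembled F11r. In young pachytene spermatocytes 1372002_at read 12.27 in rat 1 and 12.08 in rat 10, and the other 4 rats lay between 11.10 and 11.28. The aged rats lay between 10.21 and 10.82. The change was -1.04 (SE 0.20, 2.06-fold, adjusted p = 0.00216) and was -0.73 without rats 1, 10 and 11, with 12 of 12 fits without 1 rat past the threshold. In round spermatids the level ran from 7.88 to 8.58 in young and from 7.49 to 8.21 in aged rats, with overlap. The change there was -0.49 (SE 0.12, adjusted p = 0.0148), but -0.35 without rats 1, 10 and 11 (adjusted p = 0.184). The other Gja1 probe sets, 1369640_at and 1369639_at, did not pass the threshold in either fraction. In pachytene spermatocytes 1369639_at read 4.39 to 4.62, near the absent control.

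In round spermatids as a whole 5 of the 14 probe sets were lower in aged rats and 0 were higher, against 8.48% and 8.65% of all probe sets, and 9 were not past the threshold. They belonged to Cldn11 (both probe sets), Ocln, Cxadr and Gja1. By limma's p before adjustment 7 were lower and 1 was higher, the latter Tjp1 1372473_at. Every aged array lay below every young one for 2 probe sets, which held for 3.6% of all probe sets. These were 1 of Cldn11 and 1 of Ocln, the latter near the absent control. The median change was -0.09, and 0.00 over all probe sets. On the deposited scale 3 were lower and 3 higher, but there the median probe set itself shifted by 0.14 with age. The share of all probe sets called on that scale is not given here. Without young rats 1, 10 and 11 only Cldn11 1376711_at remained past the threshold, and the share of all probe sets that were lower fell to 2.41% there.

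**Figure D3:**
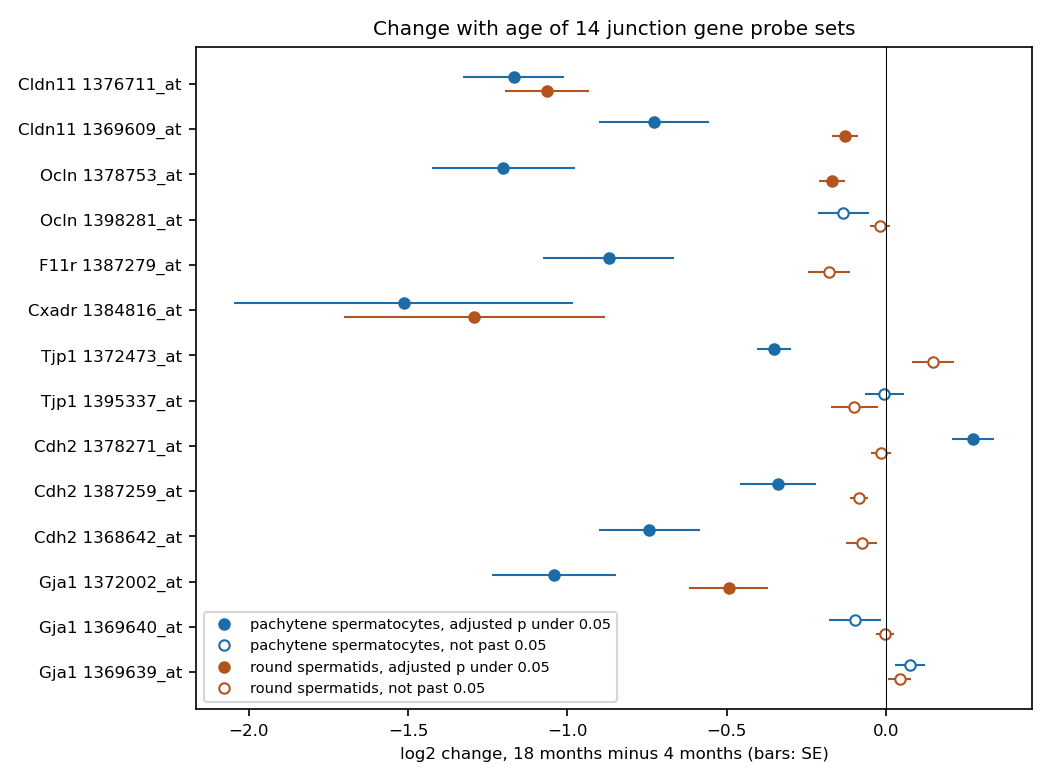
Log2 change with age (aged minus young, horizontal; bars are SE, n = 6 per age) of the 14 probe sets in pachytene spermatocytes and round spermatids; filled symbols have an adjusted p under 0.05. In pachytene spermatocytes filled symbols of 9 probe sets lie below 0 and that of Cdh2 1378271_at above it, while in round spermatids Cldn11 1376711_at and Cxadr have changes below -1 and the other probe sets lie between -0.49 and 0.15.

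**Figure D4:**
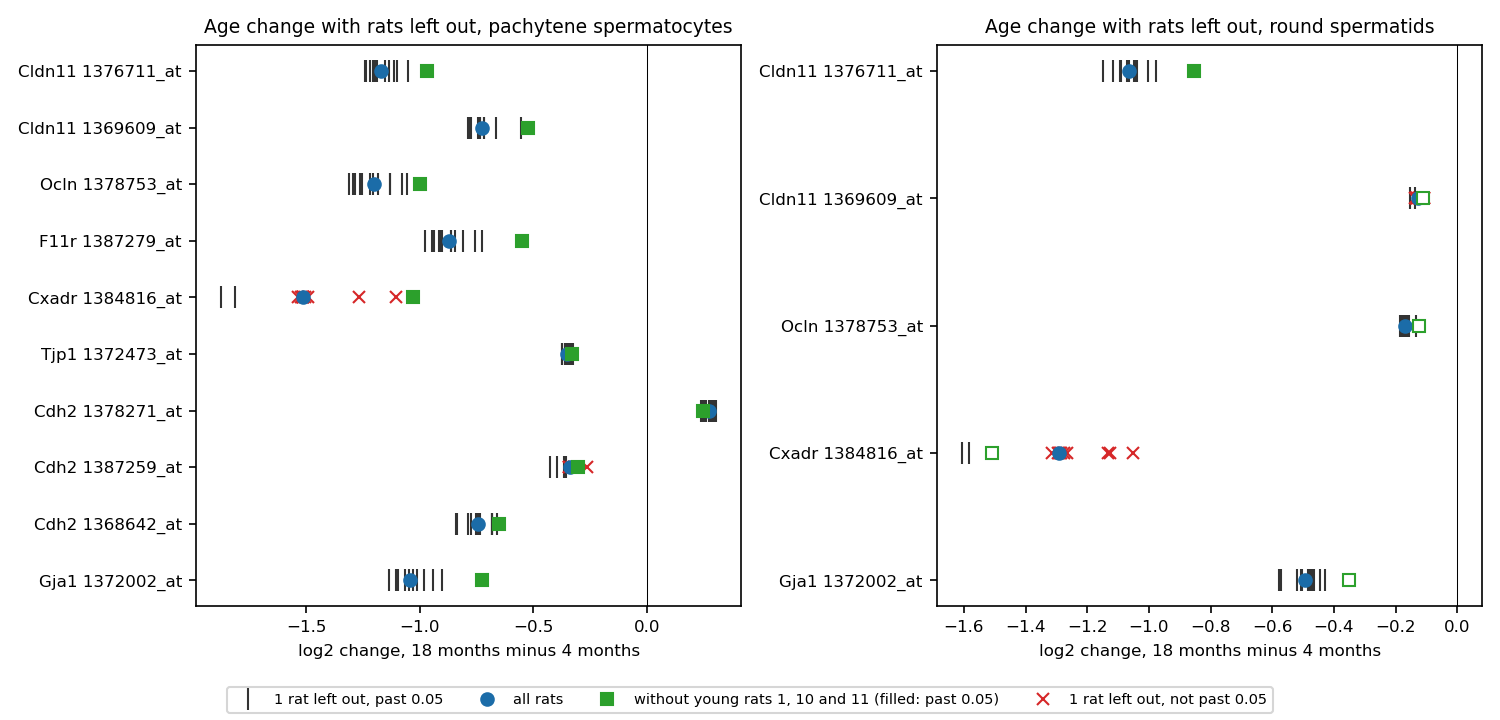
Log2 change with age of each called probe set over all rats (circle), without 1 rat at a time (ticks where past the threshold, crosses where not) and without young rats 1, 10 and 11 (squares, filled where past it). Crosses gather at Cxadr in both fractions, at Cdh2 1387259_at and at Cldn11 1369609_at in round spermatids, and in round spermatids 1 square of 5 is filled.

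Whether the change with age differed between the fractions was tested as the change in round spermatids minus that in pachytene spermatocytes, on arrays brought to 1 scale. Of the 14 probe sets 1 was lower and 3 were higher in this difference, against 7.04% and 5.98% of all probe sets, and 10 were not past the threshold. Tjp1 1372473_at had a difference of 0.53 (SE 0.08, adjusted p = 0.000415), with 12 of 12 fits without 1 rat past the threshold and 0.38 without rats 1, 10 and 11. Ocln 1378753_at had 0.48 (SE 0.13, adjusted p = 0.0216), past the threshold in 9 of 12. For Cdh2 the probe sets were opposed here too, with 0.36 for 1368642_at (adjusted p = 0.0329) and -0.16 for 1378271_at (adjusted p = 0.0382). In round spermatids Ocln 1378753_at and Cdh2 1368642_at read 6.84 to 7.26, near the absent control at 6.83, so a smaller change there cannot be told apart from a floor of the signal. The Cdh2 calls held in 5 and 4 of 12 fits without 1 rat, and with the rat as a fixed replicate block neither did (adjusted p = 0.0635 and 0.0553). With that block the difference of F11r, 0.59 (SE 0.24, adjusted p = 0.104 without it), passed the threshold (adjusted p = 0.0446). For Cldn11 1376711_at the difference was 0.20 (SE 0.23), for Gja1 0.51 (SE 0.29) and for Cxadr -0.93 (SE 0.57), and none of these passed. The shared scale adds an offset to pachytene values, which makes log2 changes of dim probe sets smaller there. On it Cxadr changed by -0.59 in pachytene spermatocytes, against -1.51 within the fraction. Its difference is therefore not that of the changes within fractions. On the deposited scale with the offset the split was 0 lower and 11 higher. As deposited, the median probe set itself shifted by -0.24 with age in pachytene spermatocytes and by 0.14 in round spermatids. The share of all probe sets is not given for that scale, so this split cannot be read as particular to the barrier genes.

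Between the fractions themselves most of the barrier genes were higher in pachytene spermatocytes. Of the 14 probe sets 8 were lower in round spermatids and 2 higher, against 38.3% and 46.9% of all probe sets, and 4 did not pass. Cldn11 1376711_at averaged 12.94 ± 0.38 (SD, n = 6) in the young and 11.66 ± 0.23 in the aged pachytene fraction. In round spermatids it averaged 9.88 ± 0.31 in young and 8.80 ± 0.22 in aged rats. Every pachytene array thus lay above every round spermatid array, and the difference was 7.77-fold (round minus pachytene -2.96, SE 0.11, adjusted p = 5.52e-17). The difference of Gja1 was 6.52-fold (-2.71, SE 0.15), and those of Cdh2 1368642_at, F11r, Ocln 1378753_at and Tjp1 1372473_at were -1.22, -1.14, -0.99 and -0.65. The order of levels was the same for Cldn11, Gja1, F11r, Ocln and Cdh2 1368642_at, from young to aged pachytene spermatocytes and then from young to aged round spermatids. Of the neighbouring groups in that order, the 2 round spermatid groups overlapped for Gja1, F11r and Cdh2 1368642_at, and the 2 pachytene groups for Cdh2 1368642_at. For Tjp1 aged round spermatids stood above young ones, within their spread.

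Cdh2 1378271_at and Cxadr were higher in round spermatids. Cdh2 1378271_at differed by 0.67 (SE 0.02) and its fractions did not overlap. For Cxadr the difference was 0.84 (SE 0.29, adjusted p = 0.00960), made of 1.29 in young rats (SE 0.56, adjusted p = 0.0510) and 0.36 in aged rats. The absent control read higher in round spermatid arrays before the offset, so for dim probe sets such as Cxadr in aged rats fraction and array background cannot be told apart.

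The members varied together within groups to different degrees. The correlations below are over 12 arrays of a fraction after group means were taken off, and the arrays share their hybridisation and normalization, so they are a description. In pachytene spermatocytes F11r and Gja1 were each other's nearest match among 13979 genes (r = 0.989), and Cldn11 correlated with them at 0.949 and 0.965. For F11r and Gja1 the largest gap in the ordered values, 0.77 and 0.79, lay below young rats 1 and 10. These 2 arrays thus weigh heavily in r, and r without them was not computed. The genes nearest to Cldn11 were Plppr4, Ppp3ca and Maged1 (0.991 to 0.992), to Ocln Krt19 (0.967), Mt3 and Smim11, and to Tjp1 Ostm1 (0.908), Tmem62 and Smim11. Cxadr correlated weakly with these members in pachytene spermatocytes (0.11 with Cldn11, -0.23 with Ocln, 0.06 with F11r and 0.13 with Gja1) and negatively in round spermatids (-0.58, -0.60, -0.55 and -0.47). Its nearest genes were Tsr2 (0.930), Csnk1d and Rragc in pachytene spermatocytes and Aspa (0.974), Ifnk and Mipep in round spermatids. Tjp1 correlated with Cldn11 at 0.78 in pachytene spermatocytes and at -0.89 in round spermatids, where its nearest genes were Rraga, Tm9sf2 and Tiprl.

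For Cldn11, F11r and Gja1, whose levels varied most closely together, the promoters are shown (RefSeq, GRCr8, from 250 bases before to 50 after the start of the transcript; 5 of the 7 genes had an entry, Cxadr and Cdh2 did not). Capitals mark matches on either strand to the CCAAT box (CCAAT), the GC box (GGGCGG) and the AP-1 site (TGANTCA), letters that do not overlap with each other. They lie at chr2:114149490-114149789 on the minus strand, chr13:86405979-86406278 on the plus strand and chr20:36302314-36302613 on the plus strand.
Cldn11: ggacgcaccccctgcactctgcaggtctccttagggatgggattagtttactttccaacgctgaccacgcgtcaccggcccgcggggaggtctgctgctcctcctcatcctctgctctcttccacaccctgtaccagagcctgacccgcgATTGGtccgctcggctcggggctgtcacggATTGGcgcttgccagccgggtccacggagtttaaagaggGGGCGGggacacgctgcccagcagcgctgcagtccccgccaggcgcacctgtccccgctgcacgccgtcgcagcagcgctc
F11r: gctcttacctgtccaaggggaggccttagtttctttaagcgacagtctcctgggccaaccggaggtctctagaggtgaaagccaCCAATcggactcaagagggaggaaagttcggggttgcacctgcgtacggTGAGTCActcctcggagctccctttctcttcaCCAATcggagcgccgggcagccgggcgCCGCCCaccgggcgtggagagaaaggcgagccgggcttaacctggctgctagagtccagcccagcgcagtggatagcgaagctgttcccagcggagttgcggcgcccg
Gja1: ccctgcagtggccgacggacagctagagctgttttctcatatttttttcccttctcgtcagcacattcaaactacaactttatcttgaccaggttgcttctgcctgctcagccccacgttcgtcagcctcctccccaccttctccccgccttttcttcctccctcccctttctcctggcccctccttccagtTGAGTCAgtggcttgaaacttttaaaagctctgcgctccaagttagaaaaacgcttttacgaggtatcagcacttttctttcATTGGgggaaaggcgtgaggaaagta
CCAAT was present in all 3, as in 37.5% of 33469 promoters of this length. The GC box was in Cldn11 and F11r, as in 33.1% of promoters, and the AP-1 letters were in F11r and Gja1, as in 7.33%. Ocln and Tjp1 held none of the 3 in this window. Both of these windows, on the minus strand, lie inside the span of their gene. That of Ocln is chr2:33441149-33441448, in a gene that ends at 33442207. That of Tjp1 is chr1:128325311-128325610, in a gene that ends at 128505018. Transcript starts further upstream in these 2 genes were not searched. A match describes the letters only.

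Most Sertoli cell markers were lower in aged pachytene spermatocytes, as were most probe sets of the barrier genes. Of 24 listed markers 19 were measured, among them Clu, Inha and Wt1. In pachytene spermatocytes 14 were lower in aged rats and 1 was higher (median -0.99), against 18.9% and 25.5% of all genes. In round spermatids 7 were lower and 0 higher, also by limma's p before adjustment (median -0.08), against 12.4% and 12.5% of all genes. Of the 19 markers 16 were lower in round spermatids than in pachytene spermatocytes and 3 were higher, against 38.6% and 49.7% of all genes. Their mean log2 level in the pachytene fraction was 9.36 to 9.99 in young rats and 8.64 to 8.99 in aged ones, with no overlap. In the round spermatid fraction it was 8.11 to 8.48 and 7.84 to 8.13. The summed linear signal of the list ran from 44906 to 77393 in the young pachytene fraction and from 22117 to 29972 in the aged one. In round spermatids it ran from 6442 to 10807 at 4 months and from 4770 to 6525 at 18 months. Rats 1 and 10 had the highest means in young pachytene spermatocytes (9.99 and 9.72) and rat 10 in young round spermatids (8.48), as for Cldn11, Ocln, F11r and Gja1 in pachytene spermatocytes and rat 10 for these 4 genes in round spermatids. The 4 rats with high Cxadr had marker means of 9.36 to 9.99 in pachytene spermatocytes, and the 2 with low Cxadr had 9.46 and 9.72. Without young rats 1, 10 and 11, 12 of the 19 markers were lower in pachytene spermatocytes and 6 in round spermatids. Of all probe sets 10.6% and 2.41% were lower in those fits. The part of Sertoli cell RNA in the barrier genes' changes was not tested.

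Late spermatid markers mostly fell with age in pachytene spermatocytes too, and spermatogonial markers did in part. Of all genes 18.9% were lower there and 25.5% higher. Calls in the other lists were fewer or went both ways. Of 13 late spermatid markers 12 were lower in aged pachytene spermatocytes, with mean levels of 14.41, 14.08 and 14.01 in young rats 1, 11 and 10. Rats 2, 3 and 13 lay at 13.25 to 13.45, and aged rats at 12.84 to 13.39. Of 10 spermatogonial markers 5 were lower there and 0 higher, before adjustment too. Of 11 Leydig cell, 10 peritubular, 12 macrophage and 8 endothelial and blood markers, 3, 1, 2 and 1 were lower in aged pachytene spermatocytes and 0, 3, 1 and 2 higher (2 Leydig cell markers before adjustment). Of 12 pachytene and 8 round spermatid markers, 2 and 3 were lower there and 3 and 1 higher. The part of these lists in the result was not tested either.

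A wider list of 89 other junction genes, of which 81 had a probe set with 1 symbol, held genes that moved both ways. In pachytene spermatocytes 27 were lower in aged rats and 14 higher, where of all 14217 genes 18.9% were lower and 25.5% higher, and the medians were 0.00 and 0.05. By role, 1 of 11 tight junction membrane proteins was lower and 2 were higher, among them Cldn12 (0.21). Of 17 tight junction scaffold and polarity genes 7 were lower and 4 higher, of 18 adherens junction genes 8 and 3, of 8 gap junction genes 1 and 3, and of 27 genes of the ectoplasmic specialization and its regulators 10 and 2.

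The lower genes with the smallest p were Fyn, a Src family kinase of the barrier (-1.32, SE 0.16, adjusted p = 0.000346), Eps8, an actin-capping protein of the ectoplasmic specialization (-0.95), Ctnna1 and Ctnna2, the alpha-catenins that link cadherins to actin (-0.99 and -1.24), and Espn, an actin bundler there (-0.86). The higher ones were the desmosomal Dsg2 (0.42, adjusted p = 0.00111), Pkp4 (0.35), the connexins Gjb2 (0.38) and Gjc1 (0.50), and Actn4 (0.18). Fyn lay at 10.14 ± 0.35 (SD, n = 6) in young and 8.82 ± 0.28 in aged pachytene spermatocytes. Without rats 1, 10 and 11, 24 genes were lower and 11 higher, where 10.6% of all probe sets were lower. On the deposited scale 58 were lower and 1 higher, but there the median probe set itself shifted by -0.24 with age. The share of all genes on that scale is not given here, so these counts cannot be told apart from that shift.

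**Figure D5:**
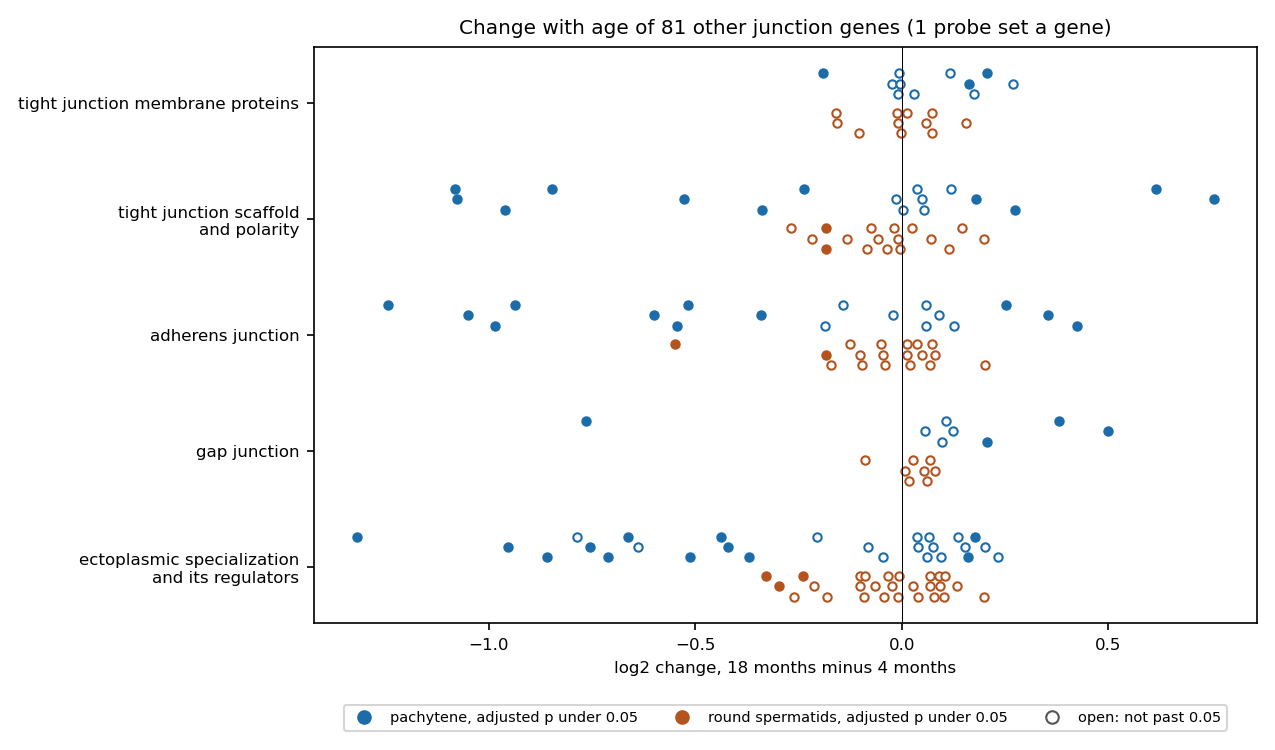
Log2 change with age (horizontal) of 81 junction genes other than the members, 1 probe set each, by role; filled points have an adjusted p under 0.05. In pachytene spermatocytes filled points lie on both sides of 0, with 27 below and 14 above, and in round spermatids 7 lie below and 0 above.

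In round spermatids 7 of the 81 genes were lower with age and 0 higher (8 by limma's p before adjustment), against 12.4% and 12.5% of all genes. Those with the smallest p were Fyn (-0.30), Espn (-0.24), Pard6b, a polarity protein (-0.18), Jup, plakoglobin (-0.55), and Limk1, a kinase that acts on cofilin (-0.33). Without rats 1, 10 and 11, 3 were lower, where 2.41% of all probe sets were lower. On the deposited scale 1 was lower and 40 were higher, but there the median probe set itself shifted by 0.14 with age. With no share of all genes given for that scale, these counts cannot be told apart from that shift. In the difference of the age change, 7 were lower and 13 higher, against 8.84% and 7.33% of all genes. Eps8 (0.60), Ctnna2 (1.25), Cgn, the tight junction scaffold cingulin (1.13), Ctnna1 (0.73) and Fyn (0.84) led the higher ones, as Tjp1 did among the members. Fyn averaged 7.43 in young and 7.14 in aged round spermatids, not far above the absent control at 6.83. Its smaller change there cannot be told apart from a floor of the signal. Dsp, Cldn12, Actn4, Limk1 and Jam2 led the lower ones, with -0.19, -0.34, -0.40, -0.38 and -0.24. Between the fractions 40 were lower in round spermatids and 34 higher, against 38.6% and 49.7% of all genes, with Fyn (-2.15) and the related kinase Yes1 (-1.67) lower and Patj (1.55), Limk1 (1.22) and Cldn3 (0.65) higher.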

How the data were processed

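Log2 signals per probe set were used as deposited. Per the labels' protocols, biotinylated cRNA was made from 3 µg of total RNA taken with a Qiagen RNeasy kit, and how probes were summarised into probe sets is not stated in those labels. Members and gene lists were chosen with earlier results of these data known.

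Array medians differed, so arrays were quantile normalized within each fraction for age. For comparisons across fractions a linear offset of 90.3 was first added to pachytene values, by least squares over 45 bacterial and phage controls (mean difference -0.61 ± 0.77 before, 0.03 ± 0.17 after; SD over controls), and all 24 arrays were normalized together with 4 group means. Log2 values were fitted with limma 3.58.1 (lmFit and eBayes, R 4.3.3) on 31042 probe sets without 57 controls, threshold 0.05, after checks on simulated data. A gene outside the members is its brightest probe set among 20826 with 1 symbol. Named were all members, and of the wider list up to 5 genes per direction with the smallest p; for likeness, the 3 genes with the highest correlation.

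Replicates are separate rats by their titles, and both fractions of a rat share a number. After group means were taken off, a rat's own fractions correlated at -0.07 to 0.36 (over 0.1 in 8 of 12 rats). The number of arrays limits precision. Alternatives covered scaling, dim probe sets, the variance model, array weights, left-out rats, the replicate block, the offset, each age alone and gene means.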

Additional observations from a re-analysis of the deposited data

Results flagged for a closer look

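Of 56 groups of 6 arrays examined for a single array far from the rest, 1 stood out, where chance alone would flag about 1 in 20. It was Cldn11 1369609_at in young pachytene spermatocytes, where rat 1 read 9.20 and the next array 8.29, a gap of 0.787 of the range of the group.

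For 4 probe sets the change with age differed between the fractions by the test of the difference itself. The change in round spermatids minus that in pachytene spermatocytes was 0.53 for Tjp1 1372473_at (limma, adjusted p = 0.000415), 0.48 for Ocln 1378753_at (adjusted p = 0.0216), 0.36 for Cdh2 1368642_at (adjusted p = 0.0329) and -0.16 for Cdh2 1378271_at (adjusted p = 0.0382). In round spermatids Ocln 1378753_at and Cdh2 1368642_at read near the absent control, so a smaller change there cannot be told apart from a floor of the signal.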

How the results depend on the processing

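In pachytene spermatocytes 10 probe sets were called, and every alternative gave 7 to 12 calls (7 with gene means, where 7 genes are tested). Between fractions 10 were called, and alternatives gave 7 to 12. In round spermatids the 5 calls became 3 with median centring, 3 in the fit over all 24 arrays and 1 without young rats 1, 10 and 11, and leaving out 1 rat gave 3 to 6. For the difference of the age change the 4 calls became 7 with median centring, 11 on the deposited scale, 2 without young rats 1, 10 and 11, 2 without the offset and 2 with gene means, and leaving out 1 rat gave 1 to 4. With the rat as replicate block, 10 probe sets were called between fractions (fixed or random), and 3 (fixed) or 4 (random) for the difference. With the numbers shared between ages as random block, 10 and 5 were called for age, and same-numbered rats of different age correlated at -0.58 to 0.02.

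Directions turned on the deposited scale for Cdh2 1378271_at (-0.12 for age in pachytene spermatocytes, 0.20 for the difference), Cldn11 1369609_at (0.0082) and Gja1 1369640_at (0.13), the last 2 for age in round spermatids. With gene means Cdh2 gave -0.27 for age in pachytene spermatocytes, -0.19 between fractions and 0.092 for the difference, since its other probe sets enter. With median centring Ocln 1398281_at gave 0.028 between fractions and Gja1 1369639_at -0.14 for the difference. Apart from the gene means, the cause of these changes was not tested.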
